A study of Mus musculus with 9 samples.

Results

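Major urinary proteins (MUPs) are small barrel-shaped carrier proteins of the lipocalin family that hepatocytes secrete in large amounts. They pass from the blood into the urine, where they bind and slowly release pheromones. In mouse liver their genes are known for higher expression in males, which depends on pulses of growth hormone acting through the transcription factor STAT5B, and on androgen, thyroid and glucocorticoid hormones. The genes lie in a dense cluster of near-identical copies and pseudogenes on chromosome 4.

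Probes for MUPs were taken from liver arrays by the gene name printed in the scanner output (Mup1, Mup2, Mup3, Mup4, Mup5, Mup20 or Mup21). This gave 11 of the 56605 probes on the array, for 7 of 37074 gene names. A further 17 probes under 13 other names belong to the family by their name or description and are described beside them. Livers of male mice were compared in 3 groups of 3 arrays, each array holding 1 labelled sample. AAV-V mice had received an empty adeno-associated virus (AAV) vector and AAV-GP73 mice an AAV encoding mouse GP73, a Golgi membrane protein, and both were on a regular diet. AAV-V HFD mice carried the empty vector and were on a high-fat diet (HFD). Every group had thus received an AAV, described in the study as hepatocyte-specific, in C57BL/6 mice, and all 9 samples are labelled 12 months, which for the vector groups on the regular diet the study describes as the time after injection. The question behind the design was how livers with GP73 overexpression compare with livers on a HFD. The sources do not say if a sample came from 1 mouse or from several pooled, so the p-values measure only the spread between these samples, which may be technical.

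Signal differed in strength between groups before any gene was considered. AAV-V arrays had 10.2% to 10.7% of their spots well above background, against 16.0% to 18.4% for AAV-GP73 and 13.8% to 16.7% for AAV-V HFD. A first slide held the AAV-V and the AAV-GP73 arrays, each group in its own column, and a second slide held the AAV-V HFD arrays, so that the slide cannot be told apart from the diet, nor the slide column from AAV-GP73. Log2 signals were scaled to a common 75th percentile of the 2669 probes well above background on all 9 arrays. Even so the median difference of the 6593 probes tested was 0.64 for AAV-GP73 against AAV-V and 0.41 for AAV-V HFD against AAV-V on the log2 scale. MUP differences are therefore set beside that median. It includes probes dim in AAV-V that entered the test through another group, which raises it. All 10 tested MUP probes were well above background on all 9 arrays, so it is not a reference of like probes. The gene encoding GP73, Golm1, could not check the labels. Its only probe starts 3524 bases into the transcript, was well above background nowhere, and may lie outside the part that the vector carries. The samples were liver by their markers, with 15 of 15 hepatocyte marker genes well above background on every AAV-GP73 and AAV-V HFD array and 14 of 15 on every AAV-V array.

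All 11 MUP probes map to the minus strand of chromosome 4 in mm9. Of these, 10 were well above background on all 9 arrays and were tested, and the third Mup3 probe (transcript base 1435, chr4:61743330-61743389) was above background on 0 of 9 arrays. The array cannot resolve every copy. The scanner output lists RefSeq transcripts of Mup1, Mup2 and Mup19 for the Mup1 probe (base 459, chr4:60512590-60512649), and of Mup1 and Mup2 for the Mup2 probe (base 679, chr4:60149741-60149800). It lists Mup1, Mup2, Mup19 and Mup21 for 1 of the Mup21 probes (base 455). For the other 7 tested probes the listed RefSeq transcripts belong to 1 gene. These are the Mup20 probes (base 314, chr4:61713671-61713730, and base 688, chr4:61711407-61711466), the second Mup21 probe (base 695, chr4:61808866-61808925), the Mup3 probes (base 549, chr4:61745794-61745853, and base 831, chr4:61744500-61744548), the Mup4 probe (base 669, chr4:59969824-59969883) and the Mup5 probe (base 58, chr4:61496097-61496156).

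The probe sequences show how close the copies are. The probes for Mup1 and Mup21 (base 455) cover the same stretch of the transcript over 45 bases and differ at 3 of them, so that signal on either may come from both genes.
The Mup20 probe (base 314) differs at 6 of 60 bases, in capitals, from the probe of a pseudogene named ENSMUST00000119998 (chr4:61691724-61691783), which was well above background on only 1 of 9 arrays.
Mup20: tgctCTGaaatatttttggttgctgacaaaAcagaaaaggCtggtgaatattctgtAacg
ENSMUST00000119998: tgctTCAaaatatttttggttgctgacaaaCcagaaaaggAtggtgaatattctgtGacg
The Mup3 probe (base 549) aligns over its whole length with 3 pseudogene probes on the plus strand (chr4:60754148-60754207, chr4:60693053-60693112 and chr4:61115734-61115793), which differ from it at 8 or 9 bases, in capitals.
Mup3: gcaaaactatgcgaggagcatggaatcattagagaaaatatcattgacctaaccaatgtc
ENSMUST00000178663: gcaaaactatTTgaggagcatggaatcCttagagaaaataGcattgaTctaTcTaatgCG
ENSMUST00000178292: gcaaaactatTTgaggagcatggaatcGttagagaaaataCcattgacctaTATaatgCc
ENSMUST00000126217: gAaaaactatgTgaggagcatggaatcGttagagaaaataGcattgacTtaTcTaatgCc
The Mup20 probe at base 688 and the Mup4 probe likewise share a stretch of 52 bases, of which 45 are identical. A probe of the pseudogene Mup-ps16 (base 2124) matches that Mup20 probe at 49 of 55 bases and the Mup4 probe at 43 of 47. It was well above background on all 9 arrays and was itself called higher in AAV-GP73 than in AAV-V (1.18 ± 0.46, adjusted p = 0.0420 in limma).
The Mup5 probe is shown because its values part from those of the other members. It begins at the start codon, in capitals. No other family probe was found to share its stretch, but probes were compared only with each other. Whether transcripts of other copies hold this stretch, and add to its signal, was not checked.
Mup5: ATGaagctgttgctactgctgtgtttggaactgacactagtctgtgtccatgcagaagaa

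Among the adult male liver MUPs, Mup1 is a major secreted carrier that has been tied to glucose and lipid metabolism. Its scaled log2 signal was 11.43, 10.33 and 10.80 on the AAV-V arrays (replicates 1 to 3), 12.86, 11.95 and 12.05 on the AAV-GP73 arrays, and 10.37, 12.37 and 10.02 on the AAV-V HFD arrays. The AAV-GP73 arrays all lay above the AAV-V arrays, whereas the AAV-V HFD arrays fell on both sides of them. The Mup2 probe, for a close copy of Mup1, gave 9.62, 8.34 and 8.81 in AAV-V, 11.01, 10.15 and 10.06 in AAV-GP73, and 9.55, 10.72 and 7.59 in AAV-V HFD. Here too AAV-GP73 did not overlap AAV-V, and AAV-V HFD held both the second highest and the lowest of the 9 values.

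Mup20 encodes darcin, a male urinary pheromone carrier that attracts females. At its probe at base 314 the values were 9.18, 7.68 and 8.34 in AAV-V, 10.71, 9.78 and 9.77 in AAV-GP73, and 7.86, 9.83 and 8.25 in AAV-V HFD. At base 688 they were 11.16, 9.28 and 10.13 in AAV-V, 12.02, 11.60 and 11.50 in AAV-GP73, and 9.67, 11.12 and 10.33 in AAV-V HFD. Both probes put every AAV-GP73 array above every AAV-V array. Mup4, a MUP that is also made in glands outside the liver, gave 10.76, 9.07 and 10.20 in AAV-V, 12.05, 11.09 and 11.34 in AAV-GP73, and 9.99, 11.73 and 9.28 in AAV-V HFD. It showed the same separation of AAV-GP73 from AAV-V.

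Both tested Mup3 probes and the Mup21 probe listed for that gene alone separated AAV-GP73 from AAV-V less. The Mup21 probe shared with Mup1 and others gave 11.85, 10.69 and 11.30 in AAV-V, 13.06, 12.20 and 12.34 in AAV-GP73, and 10.82, 12.51 and 10.46 in AAV-V HFD. The Mup21 probe listed for that gene alone gave 6.36, 5.29 and 6.01, then 6.96, 6.39 and 6.32, then 5.06, 6.36 and 3.79 in the same order of groups. Only the shared probe kept AAV-GP73 and AAV-V apart, since AAV-V replicate 1 lay above AAV-GP73 replicate 3 on the other. For Mup3 the probe at base 549 gave 8.73, 7.02 and 8.31 in AAV-V, 9.38, 8.65 and 8.73 in AAV-GP73, and 7.33, 8.63 and 7.08 in AAV-V HFD. At base 831 the values were 10.14, 8.91 and 9.76, then 10.56, 10.30 and 9.89, then 9.11, 10.39 and 7.97. AAV-GP73 overlapped AAV-V on both Mup3 probes.

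Mup5, which is known more from the salivary and lacrimal glands than from the liver, ran differently. Its values were 10.72, 10.71 and 10.66 in AAV-V, 10.32, 9.71 and 10.01 in AAV-GP73, and 9.62, 9.74 and 8.85 in AAV-V HFD. The AAV-V arrays were the 3 highest of the 9 and lay within 0.053 of each other, the narrowest range of any MUP probe in any group.

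**Figure D1:**
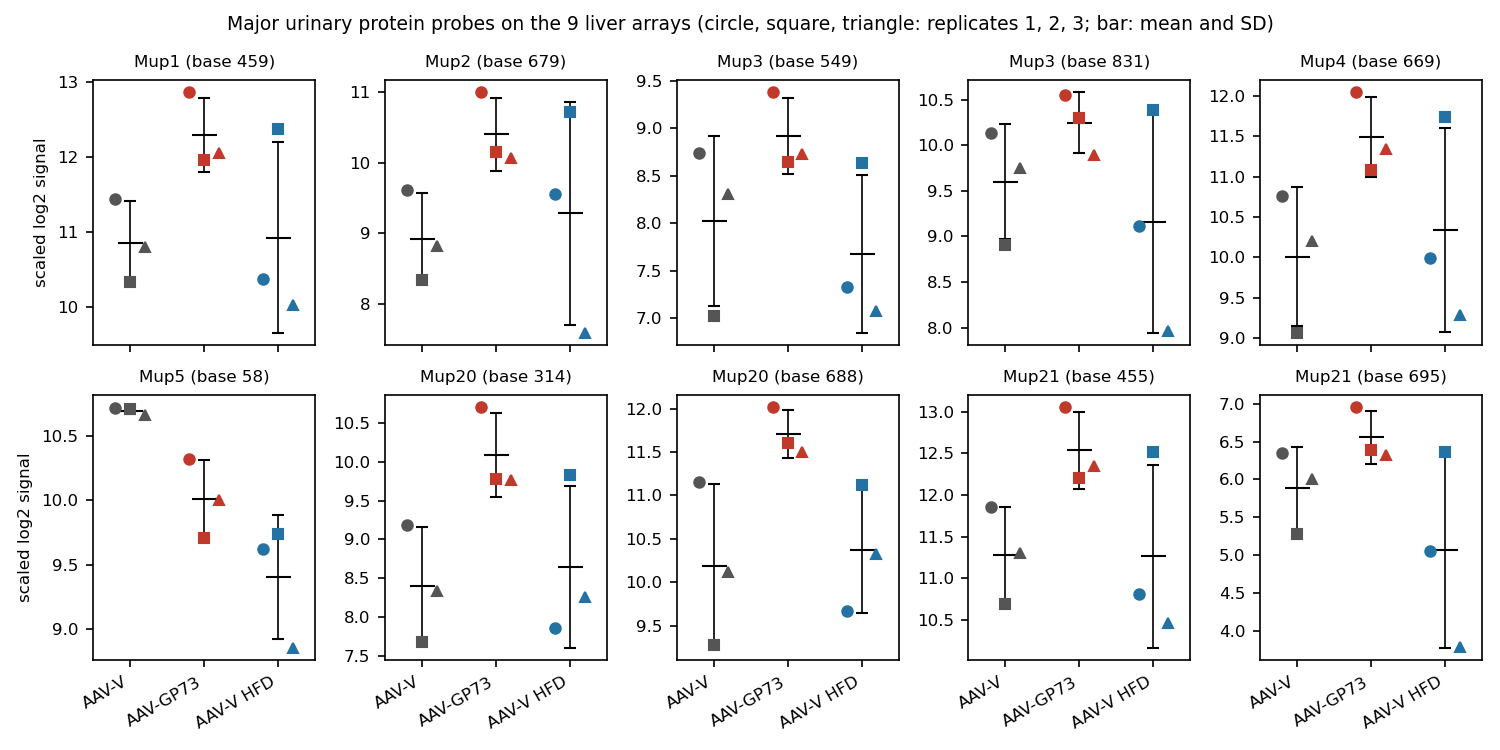
Scaled log2 signal (vertical axis) of the 10 tested MUP probes, named by gene and first transcript base, on the 3 arrays of each group; symbols give the replicate and bars the mean and SD (n = 3). All panels but Mup5 place AAV-GP73 replicate 1 highest of the 9 arrays, and in Mup5 the AAV-V arrays lie highest, between 10.66 and 10.72.

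In AAV-GP73, 9 of 10 MUP differences from AAV-V were positive, and the calls among them depended on single arrays and on the scaling. Of the 10 probes tested, 5 were called higher in AAV-GP73 (fold of at least 2 and adjusted p under 0.05 in limma, adjusted over all 6593 probes) and 0 lower, where 34% of all probes tested were called higher and 17.9% lower. The 5 were those of Mup1, Mup4, both Mup20 probes and the shared Mup21 probe. Mup20 rose by 1.68 ± 0.52 (log2, SE, adjusted p = 0.0155 in limma) at base 314 and by 1.52 ± 0.47 (adjusted p = 0.0151) at base 688. Mup4 rose by 1.48 ± 0.59 (adjusted p = 0.0456), Mup1 by 1.44 ± 0.55 (adjusted p = 0.0386), equal to 2.70-fold, and the shared Mup21 probe by 1.25 ± 0.50 (adjusted p = 0.0470). Mup2 differed as much, by 1.48 ± 0.64, but did not pass (adjusted p = 0.0629). The other Mup21 probe (0.67 ± 0.53, adjusted p = 0.289) and the Mup3 probes (0.90 ± 0.49, adjusted p = 0.128, and 0.65 ± 0.53, adjusted p = 0.297) did not pass either. At an unadjusted p under 0.05 there were 7 of 10, against 65.6% of all probes tested.

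The difference of Mup5 had the opposite sign, -0.69 ± 0.30 (95% interval -1.35 to -0.03), which missed the threshold (adjusted p = 0.0660 in limma). Its sign depended on the scaling, being positive under the 75th percentile of all non-control probes (0.30) and under spike-in scaling (0.99). The arrays of both groups did not overlap for 6 probes with AAV-GP73 higher and for Mup5 with AAV-GP73 lower, against 45.8% and 21.4% of all probes. Over the 10 probes the median difference was 1.34, beside 0.64 over all probes tested, and 9 of 10 lay above that median. The set of calls rested on single arrays. Without AAV-V replicate 2 or without AAV-GP73 replicate 1, 0 MUP probes were called, and without AAV-V replicate 3, AAV-GP73 replicate 2 or AAV-GP73 replicate 3 the number was 2. Under the 75th percentile of all probes, 9 MUP probes were called higher, but that scaling called 4375 probes higher and 418 lower where the main scaling called 2239 and 1182. Scaled to 19 probes of hepatocyte marker genes, 0 MUP probes were called, where 11.8% of all probes were called higher and 19.3% lower. Under that scaling 9 of 10 differences were positive, with a median of 0.90 beside 0.19 over all probes. Under normexp background correction 6 MUP probes were called higher and 0 lower, where 2.31% and 11.2% of all probes were. The median there was 1.55 beside -0.58 over all probes.

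**Figure D2:**
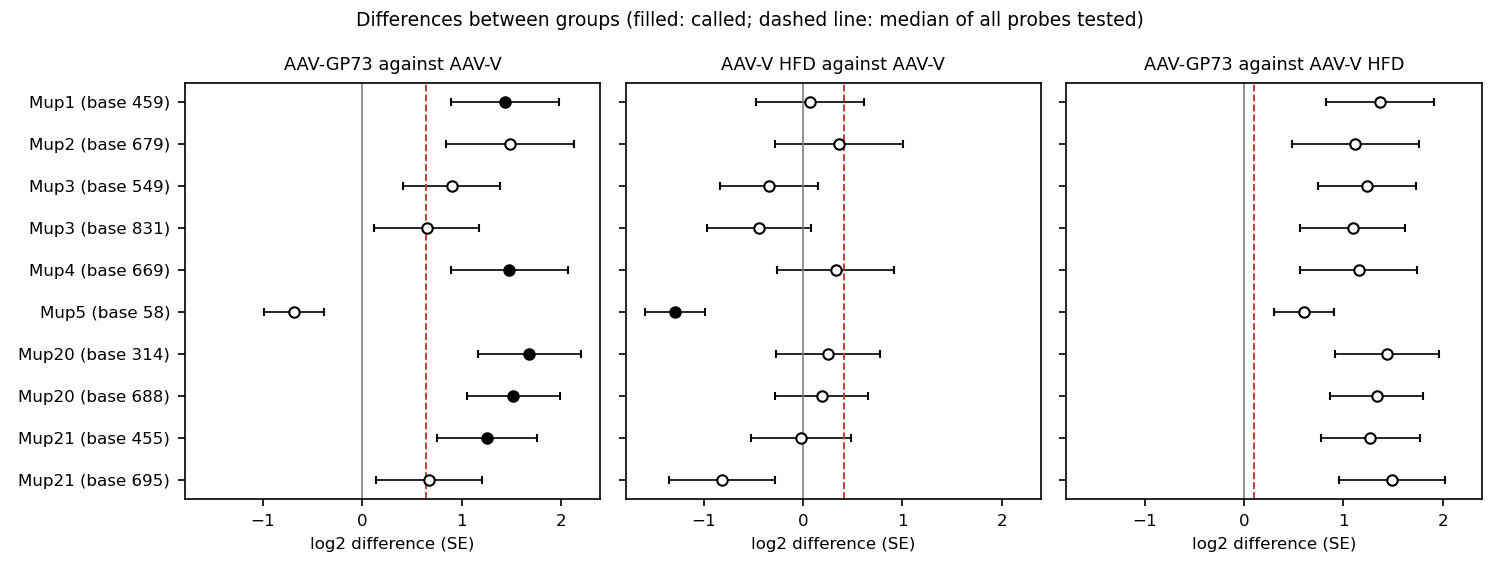
Log2 difference with its SE (horizontal axis) for each tested MUP probe in the 3 comparisons; filled points were called, and the dashed line is the median of all 6593 probes tested. In AAV-GP73 against AAV-V, 9 of 10 probes lie right of the dashed line and Mup5 left of 0, and in AAV-V HFD against AAV-V all 10 lie left of the dashed line. Values are those of the main scaling.

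On the HFD 0 of 10 MUP probes were called higher than in AAV-V and 1 was called lower, where 25.1% and 16.9% of all probes tested were. It was also the only one at an unadjusted p under 0.05, where 59.8% of all probes were, and the only one whose groups did not overlap (34.6% of all probes lay higher without overlap and 21.5% lower). The probe called lower was that of Mup5, which fell by 1.29 ± 0.30 (log2, SE, adjusted p = 0.0047 in limma) with no overlap of the arrays, but its value was 0.04 under spike-in scaling and the call was lost under 5 other settings. Under the main scaling all 10 MUP probes lay below the median of all probes, with a median difference of 0.02 beside 0.41. This order turned under normexp background correction, with a MUP median of 0.34 beside -0.74 over all probes. Another scaling set the median of the probes well above background on all 9 arrays equal between arrays. There 4 of 10 MUP differences were positive, with a median of -0.05, so the MUP probes did not all lie below that level. The main-scaling differences of the 9 probes other than Mup5 ran from -0.82 ± 0.53 (Mup21 at base 695) to 0.36 ± 0.64 (Mup2), and none passed (lowest adjusted p = 0.213 in limma). The 95% intervals ran from -1.04 to 1.76 for Mup2 and from -1.12 to 1.26 for Mup1, and so took in a 2-fold change in either direction. Over the MUP probes the median SD was widest in AAV-V HFD, at 1.16 against 0.34 over all probes, where AAV-V had 0.64 against 0.43 and AAV-GP73 0.43 against 0.27. On all 9 probes other than Mup5, AAV-V HFD replicate 2 was the highest of its group. Without it, 2 MUP probes were called lower on the HFD, and the Mup1 difference moved from 0.07 to -0.65. Leaving out the highest array lowers the group by construction, and the share of all probes called without it is not given.

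AAV-GP73 and AAV-V HFD share no arrays with each other, and between them all 10 MUP differences were positive, with a median of 1.26 beside 0.10 over all probes. None was called (lowest adjusted p = 0.174 in limma), where 2.09% of all probes were called higher and 0.592% lower. The groups did not overlap for 2, Mup20 at base 688 and Mup3 at base 549, both higher in AAV-GP73, against 15.8% of all probes higher and 8.27% lower. Before adjustment 6 of 10 had p under 0.05, against 16.2% of all probes tested. The widest differences were Mup21 at base 695 (1.49 ± 0.53) and Mup20 at base 314 (1.44 ± 0.52), and the narrowest was Mup5 (0.61 ± 0.30, adjusted p = 0.353), which turned to -0.003 when arrays were scaled to hepatocyte markers. Without AAV-V HFD replicate 2, 4 MUP probes were called higher in AAV-GP73. That array was the highest of its group on the 9 probes other than Mup5, so leaving it out widens their differences by construction. The share of all probes called without it is not given. This comparison also runs across both slides.

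**Figure D3:**
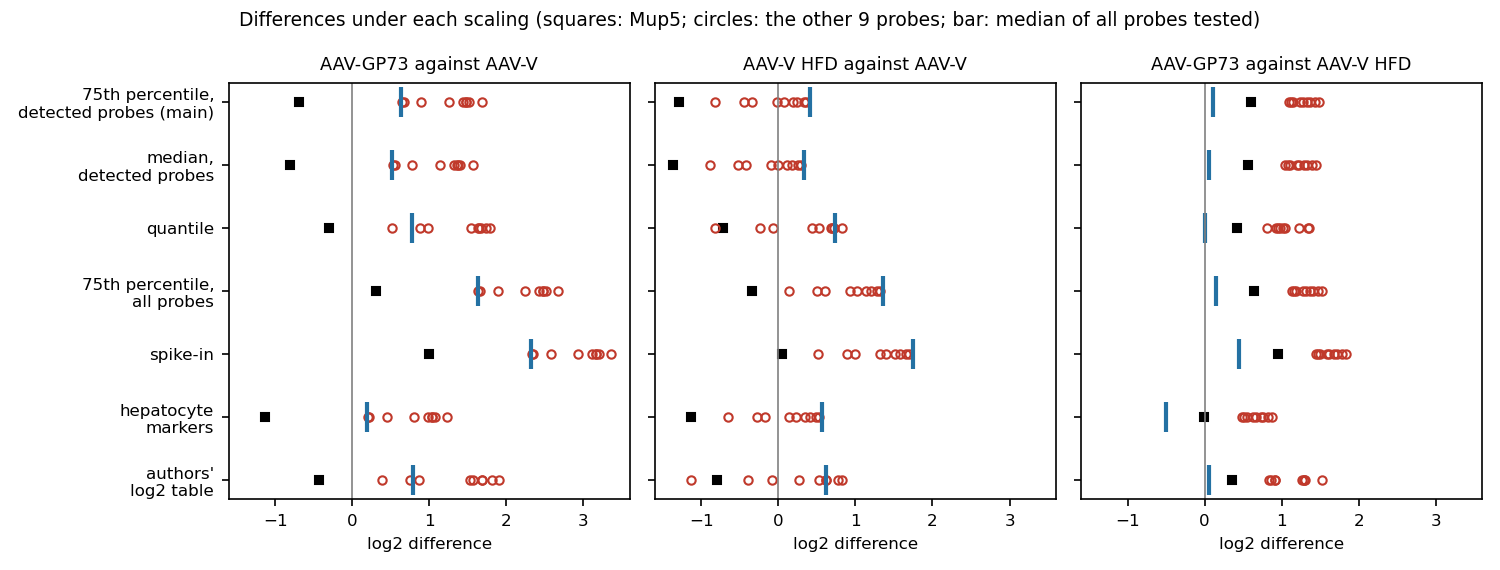
Log2 differences (horizontal axis) of the 10 MUP probes under 7 ways of bringing the arrays to a common level (rows), with a bar at the median of all probes tested. In AAV-GP73 against AAV-V all circles lie right of 0 under each of the 7, and the Mup5 square crosses 0 under the 75th percentile of all probes and spike-in scaling.

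The 9 probes other than Mup5 moved together from array to array. Over the 9 arrays their pairwise Pearson's r ran from 0.70 to 1.00 (36 pairs), while Mup5 had r between -0.05 and 0.58 with them. These arrays share their scaling and, for shared probes, their target, and the values are a description. In AAV-V, replicate 1 was the highest and replicate 2 the lowest for all 9. Over all groups AAV-GP73 replicate 1 was the highest array for each of the 9 probes, and the lowest was AAV-V HFD replicate 3 for 5 and AAV-V replicate 2 for 4. The mean of the 9 probes was 9.92, 8.51 and 9.29 in AAV-V, 10.95, 10.23 and 10.22 in AAV-GP73, and 8.86, 10.41 and 8.31 in AAV-V HFD. The AAV-V HFD group thus held 2 low arrays and 1 high one.

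Setting the mean of the 9 probes against the mean of hepatocyte marker genes of the same array does not depend on the scaling of arrays. This difference was 0.11, -0.76 and -0.13 in AAV-V, 0.67, 0.27 and 0.63 in AAV-GP73, and 0.34, 0.78 and -1.56 in AAV-V HFD. The AAV-GP73 arrays lay above all AAV-V arrays, and AAV-V HFD reached both ends. AAV-V HFD replicate 3 had hepatocyte markers at 9.87, above those of the other AAV-V HFD arrays (8.52 and 9.63), while its MUP mean was the lowest of all 9 arrays.

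Within an array, the log2 signal of Mup5 minus the mean of the 9 other probes needs no scaling at all, and only its change between arrays has a meaning. It was 0.80, 2.20 and 1.37 in AAV-V, -0.64, -0.53 and -0.22 in AAV-GP73, and 0.76, -0.67 and 0.55 in AAV-V HFD. The AAV-V arrays lay above all AAV-GP73 arrays, which was noticed after the values were seen and was not tested. The values do not show which of the probes moved.

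**Figure D4:**
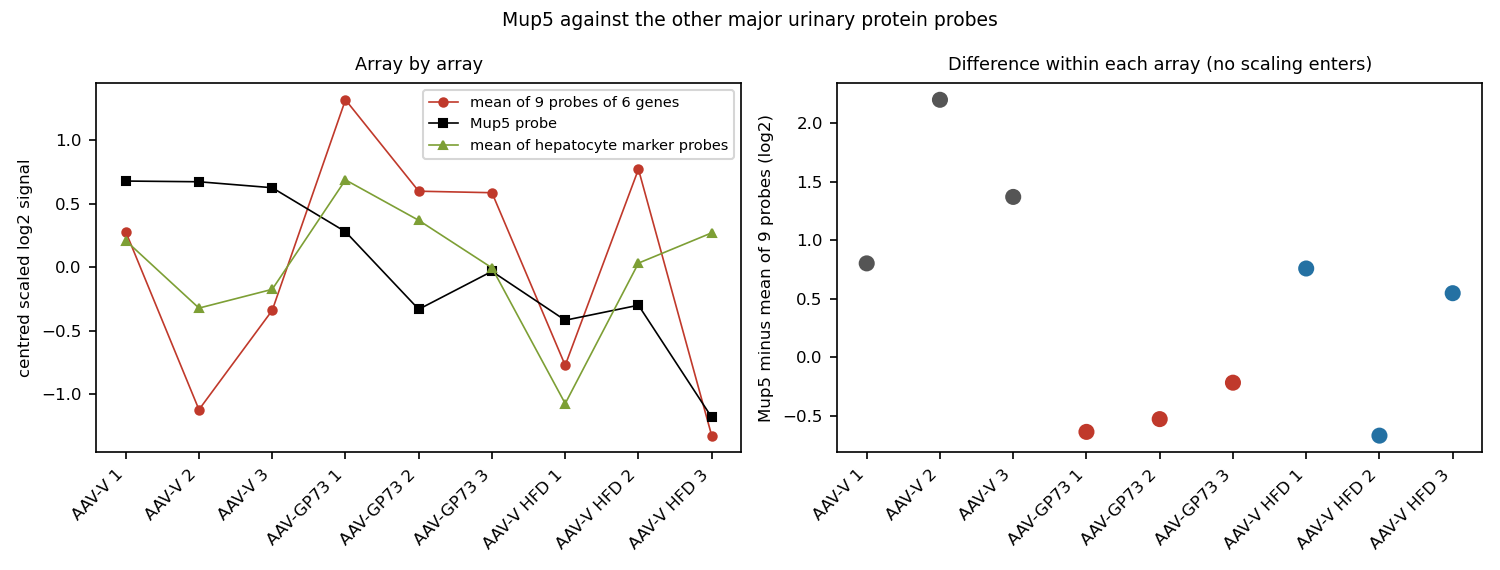
Left, scaled log2 signal centred on its mean over 9 arrays for the mean of the 9 MUP probes of 6 genes, for Mup5 and for hepatocyte markers, array by array; right, log2 signal of Mup5 minus the mean of the 9 probes within each array. In the right panel, whose zero has no meaning, the 3 AAV-V arrays (0.80 to 2.20) lie above the 3 AAV-GP73 arrays (-0.64 to -0.22), and AAV-V HFD overlaps with AAV-GP73.

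Other probes of the family mostly went the way of Mup1 and Mup20. Of the 17, 11 were tested, and 9 of these were called higher in AAV-GP73 than in AAV-V, where 34% of all probes were, with a median difference of 1.33 beside 0.64 over all probes. The 9 include a Mup6 probe that stood above background on 0 AAV-V arrays and allows no fold. Names here are those printed for the probe, since the probes named Mup19, Mup17 and LOC100048884 each list 3 RefSeq genes of the family. The Mup19 probe gave 12.68, 11.19 and 12.02 in AAV-V and 14.26, 13.37 and 13.36 in AAV-GP73, and rose by 1.70 ± 0.58 (adjusted p = 0.0248 in limma). The probe named Mup17 rose by 1.59 ± 0.58 (adjusted p = 0.0324) and the probe named LOC100048884 by 1.55 ± 0.59 (adjusted p = 0.0386). The last pair share 35 bases without a difference, so that they are not separate evidence. The number called higher, 9 under the main scaling, moved both ways with the processing. Leaving out AAV-GP73 replicate 1, 2 or 3 gave 0, 5 and 3. For AAV-V the same gave 8, 1 and 2, and for AAV-V HFD 8, 10 and 8. Scaling to hepatocyte markers gave 0, where 11.8% of all probes were called higher. Normexp background correction gave 4, against only 2.31% of all probes, and the median of detected probes 5, against 29.7%. Quantile normalization and the authors' table gave 7 each, against 40.4% and 39.4%. The 75th percentile of all probes and spike-in scaling gave 10 each, against 66.4% and 77.8%. A replicate block gave 6, and the methods' t-test after adjustment 2. One of the Mup6 probes rose by 1.33 ± 0.40 (adjusted p = 0.0139), and the other was well above background on 4 arrays in all. Neither Mup11 probe was tested, since no group had either of them above background throughout. No family probe was called between AAV-GP73 and AAV-V HFD.

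One pseudogene probe followed Mup5 instead. It starts at transcript base 112 and the Mup5 probe at base 58, the lowest starts among the tested family probes. The next was a dim Mup6 probe at base 207. Whether probe position bears on the pattern was not tested. ENSMUST00000120662 (chr4:61195710-61195769, plus strand) gave 13.87, 13.58 and 13.59 in AAV-V, 12.95, 12.55 and 12.56 in AAV-GP73, and 12.62, 12.29 and 11.29 in AAV-V HFD. The AAV-V arrays again lay above all others. It fell by 1.61 ± 0.34 on the HFD (adjusted p = 0.0028 in limma), which was called. In AAV-GP73 the difference was -0.99 ± 0.34 (adjusted p = 0.0258) and stayed under 2-fold. The RefSeq gene listed for this probe is Mup-ps12, and other probes listed for Mup-ps12 went the other way. The probe named Mup-ps12 (base 793) rose by 1.54 ± 0.45 in AAV-GP73 (adjusted p = 0.0113), which was called. ENSMUST00000126217 rose by 1.06 ± 0.51 (adjusted p = 0.0870), which was not. The values thus do not describe the pseudogene as a whole. For ENSMUST00000120662 the AAV-GP73 difference was 0.69 under spike-in scaling, 0.0008 under the 75th percentile of all probes and -0.02 in the authors' table. It was called lower with the median of detected probes (-1.11) and with hepatocyte markers (-1.44). On the HFD the value was negative under every scaling, but the call was lost under spike-in scaling (-0.28), under the 75th percentile of all probes (-0.66), in the authors' table (-0.57) and by the methods' t-test after adjustment.

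Of the 7 genes, 4 had a promoter in the RefSeq table (GRCm38.p6), shown because these genes lie in the same cluster and their probes moved together. Each holds TATATAA, in capitals, with 80 bases before it, on the minus strand of chromosome 4: Mup2 at chr4:60139877-60139963, Mup3 at chr4:62087322-62087408, Mup4 at chr4:59960690-59960776 and Mup21 at chr4:62150843-62150929.
Mup2: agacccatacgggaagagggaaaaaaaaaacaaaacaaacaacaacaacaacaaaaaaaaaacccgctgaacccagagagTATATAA
Mup3: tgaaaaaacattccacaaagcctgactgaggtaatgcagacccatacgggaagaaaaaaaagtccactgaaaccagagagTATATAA
Mup4: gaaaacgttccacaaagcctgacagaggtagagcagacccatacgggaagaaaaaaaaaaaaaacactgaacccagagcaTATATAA
Mup21: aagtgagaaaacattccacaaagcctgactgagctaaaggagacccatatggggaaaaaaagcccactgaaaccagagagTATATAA
TATATAA was found on either strand in 3.24% of the 32851 promoters of 300 bases in the table (250 before and 50 after each start). With the 87 bases shown aligned, gaps included, Mup3 and Mup21 were 86.7% identical, Mup3 and Mup4 82.2%, and Mup2 between 56.0% and 61.9% identical to the others, its stretch before the motif being rich in A. Neither the STAT5 motif TTCNNNGAA, held by 8.3% of promoters, nor the C/EBP motif TTGCNNAA, held by 10.8%, occurred in the 300 bases of any of the 4 on either strand, which says nothing of sites farther away.

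Genes of the hormone pathways that act on MUPs were called in both directions. Of 15 genes listed for growth hormone signalling through STAT5, 8 were tested, with 1 called higher and 2 lower in AAV-GP73 against AAV-V, where 34% and 17.9% of all probes were. With the scaling, the number called higher ran from 0 (hepatocyte markers and normexp) to 5 (75th percentile of all probes and spike-in) and the number lower from 0 to 2. The 1 called higher, the phosphatase gene Ptpn1, stood above background on 0 AAV-V arrays and allows no fold. Stat5a, a transducer of growth hormone and prolactin signals, fell by 1.87 ± 0.34 (adjusted p = 7.9e-04 in limma), and Ptpn6, a phosphatase that acts on cytokine receptors, fell by 2.22 ± 0.45 (adjusted p = 0.0014). Both were negative under all 8 settings of scaling and background, and called lower under 6 and 7 of them. Both were also called lower on the HFD, by 1.44 and 3.20. The growth hormone receptor gene Ghr (0.59, adjusted p = 0.294) and its hepatic target Igf1 (0.49, adjusted p = 0.262) did not pass. Stat5b, the main growth hormone transducer of male liver, rose above background on 0 AAV-V arrays. Its difference did not pass (adjusted p = 0.0732). The list's median was 0.54, beside 0.64 over all probes, and under normexp -0.64 beside -0.58.

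Among 17 transcription factors and receptors listed as regulators of MUPs, 7 were tested. Against AAV-V, AAV-GP73 had 5 of them called higher and 1 lower, with a median of 1.30 beside 0.64 over all probes, of which 34% and 17.9% were called. Of the 5, Nr3c1, Nfib and Cebpa were above background on 0 AAV-V arrays and so entered the test only through other groups. The count and the median thus describe a selected set and are not support for a rise of the list. The number called higher was 4 or 5 under 6 of 8 settings of scaling and background and 1 under both hepatocyte markers and normexp. Hnf4a, a factor that maintains hepatocyte gene expression, rose by 2.46 ± 0.33 (adjusted p = 1.5e-04 in limma), and was called higher under all 8 settings. It was also higher on the HFD, by 1.40 (adjusted p = 0.0046). Cebpb (1.37, adjusted p = 0.0242) was also called higher, with overlapping arrays. Nr3c1, the glucocorticoid receptor gene, and Nfib stood above background on 0 AAV-V arrays. Under the main scaling they were at least 1.29-fold and 1.27-fold higher, while Cebpa, also above background on 0 AAV-V arrays, allows no fold. These bounds were computed under the main scaling only and move with the scaling. Under normexp background correction the list's median turned to -0.53, beside -0.58 over all probes.

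Sex-biased liver genes were followed because MUPs belong to them. Of 17 male-biased genes tested, AAV-GP73 had 4 called higher than AAV-V and 1 lower (median 0.47), against 34% and 17.9% of all probes, and AAV-V HFD 1 higher and 3 lower (median -0.29), against 25.1% and 16.9%. With the scaling, the number higher in AAV-GP73 ran from 0 (normexp, median -0.41) to 12 (spike-in) and the number lower from 0 to 3, and on the HFD they ran from 0 to 6 and from 0 to 4. Elovl3, a male-biased fatty acid elongase, rose by 1.97 ± 0.53 in AAV-GP73 (adjusted p = 0.0074 in limma, well above background on 1 AAV-V array) and lay 3.28 ± 0.53 above AAV-V HFD (adjusted p = 0.0084). Cyp7b1, an oxysterol hydroxylase gene above background on 0 AAV-V arrays, was at least 1.49-fold higher under the main scaling. Its sign turned under normexp. Selenbp2, a selenium-binding protein gene, rose by 1.74 ± 0.33, and Hsd17b2, a steroid dehydrogenase gene, fell by 1.51 ± 0.34 except under spike-in scaling, where it was 0.18. Of 6 female-biased genes tested (of 23 listed), AAV-GP73 had 3 called higher than AAV-V and 0 lower (median 1.14), and AAV-V HFD 1 higher and 3 lower. The number higher in AAV-GP73 was 0 under hepatocyte markers and normexp (median -0.56) and 6 under the 75th percentile of all probes and spike-in scaling, and on the HFD quantile normalization and the authors' table gave 3 higher and 0 lower. Cyp3a41a rose by 1.65 ± 0.60 (adjusted p = 0.0313). Trim24, a transcriptional cofactor gene, and Cyp4a14, a fatty acid hydroxylase gene, stood above background on 0 AAV-V arrays. Under the main scaling Trim24 was at least 1.10-fold higher, while Cyp4a14 allows no fold. The sign of both turned under normexp.

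Secreted hepatocyte proteins and other lipocalins give the scale of change for abundant plasma proteins. Of 30 secreted proteins tested, AAV-GP73 had 4 called higher than AAV-V and 0 lower (median 0.45), against 34% and 17.9% of all probes and a median of 0.64. The number higher was 0 under hepatocyte markers, 24 under the 75th percentile of all probes and 29 under spike-in scaling. The 4 were C3 (complement component, 1.69 ± 0.57), Hp (haptoglobin, 1.64 ± 0.60), Fetub (fetuin-B, 1.42 ± 0.55) and Itih4 (an inter-alpha-trypsin inhibitor heavy chain, 1.30 ± 0.50), with adjusted p between 0.0233 and 0.0423 in limma. Of 8 other lipocalins tested, Orm3, an acute phase carrier, was the only one called, and fell by 1.19 ± 0.32 (adjusted p = 0.0072), with a positive value (0.49) under spike-in scaling. The median of the 8 was 0.29. Under the 75th percentile of all probes and spike-in scaling, 4 and 6 of the 8 were called higher and 0 lower.

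Red cell genes moved strongly with AAV-GP73, and their part in the MUP values was not tested. The summed signal of 8 erythroid markers ran from 3437 to 17446 on the AAV-GP73 arrays, from 404 to 995 on the AAV-V arrays and from 659 to 1148 on the AAV-V HFD arrays. In AAV-GP73 4 of 5 tested markers were called higher than in AAV-V, where 34% of all probes were, led by Hba-a2 (3.85 ± 0.54). Only 3 of the 8 markers were well above background throughout AAV-V, against 5 throughout AAV-GP73. Markers dim in AAV-V could enter the test only through another group, so the count describes a selected set. The summed hepatocyte markers spanned 22254 to 30642 in AAV-V, 22314 to 35838 in AAV-GP73 and 13209 to 26755 in AAV-V HFD. In whole liver, fewer cells of a type and less RNA per cell cannot be told apart.

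Of the 5 tested probes whose pattern over the 9 arrays was most like the mean of the 10 MUP probes, 4 were of the same family. The highest r belonged to ENSMUST00000178663 (0.98), LOC100048884 (0.97), Mup19 (0.97) and Mup17 (0.96), followed by Sun2, a nuclear envelope gene (0.95). The likeness is over 9 arrays of 3 groups and is a description.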

How the data were processed

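Liver RNA of 9 samples was hybridised to one-colour Agilent arrays (Cy3, 62976 spots). The deposited intensity values are processed signals that, per the file headers, Agilent Feature Extraction 12.0.3.1 background-subtracted and detrended within each array, on genome build mm9. The submitters' notes name version 10.7 and limma. A log2 table of the same arrays was also deposited by the authors, with its normalization not given in the sources used here, and served only as an alternative. Control and outlier-flagged spots were left out, which leaves 56605 probes after spots of a probe were averaged. No spot was saturated. Log2 intensities were scaled to each array's 75th percentile of the probes well above background on all 9 arrays. Groups came from the sample labels. limma 3.58.1 (R 4.3.3) was fitted over all 3 groups to the 6593 probes well above background on every array of at least 1 group, with Benjamini-Hochberg adjustment over all of them, and a probe was called at 2-fold and an adjusted p under 0.05. A probe dim in AAV-V could enter only through another group, which selects for higher values against AAV-V in the lists and in the median of all probes tested. The adjusted p-values in the text are limma's unless another test is named. With 3 against 3 arrays an exact permutation test cannot go below p = 0.1, and none was run. Every MUP probe was named, with up to 4 genes of each list that were called and differed most between AAV-GP73 and AAV-V, each by its brightest tested probe. Other list genes were named for their role, after their values were seen. The members and lists were chosen with earlier results of these data known. Some items are not reported here. The pipeline was tested on simulated data. The number of arrays limits precision.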

Additional observations from a re-analysis of the deposited data

How the results depend on the processing

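The count of MUP probes called between AAV-GP73 and AAV-V (5, all higher) was 9 under the 75th percentile of all probes and under spike-in scaling, 2 with the median of detected probes, and 0 under hepatocyte marker scaling or by the methods' t-test after adjustment. Of all probes tested, these scalings called 66.4%, 77.8%, 29.7% and 11.8% higher, in the order named. The count of MUP probes ran from 0 to 6 when 1 array was left out. With no filter it was 7, of which 1, called lower, was the Mup3 probe above background on 0 of 9 arrays. Under the other 10 settings it lay between 4 and 6, with 6 under normexp, where 2.31% of all probes were called higher. For AAV-V HFD against AAV-V (1, lower) the count was 1 and 6, all higher, under the 75th percentile of all probes and spike-in scaling. Those scalings called 58.3% and 67.3% of all probes higher. The MUP count was 0 under hepatocyte marker scaling, normexp, quantile normalization and the authors' table. With no filter it was 2, where that same Mup3 probe was the second, and it was 1 to 2 when 1 array was left out. For AAV-GP73 against AAV-V HFD (0) it was 1 by the methods' t-test before adjustment, and 0 to 4 when 1 array was left out. The cause of these moves was not tested. Replicate numbers did not pair the arrays (correlations of deviations from -0.11 to 0.17, over 0.1 for 2 of 9 pairs), and with a replicate block the counts were 4, 1 and 0.

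Signs that turned were almost all on the HFD against AAV-V. Under the 75th percentile of all probes the difference was 0.13 and 0.93 for Mup21 (bases 695 and 455), 0.51 and 0.61 for Mup3 (bases 831 and 549), and under spike-in scaling 0.52, 1.32, 0.89 and 0.99. Mup21 at base 455 was also 0.52 in the authors' table, 0.14 with hepatocyte markers, 0.30 with normexp and 0.53 with quantile normalization, Mup1 was -0.0057 with the median of detected probes, and Mup5 was 0.041 under spike-in scaling. With 1 array left out, the range was -0.65 to 0.51 for Mup1, -0.35 to 1.21 for Mup2, -0.34 to 0.64 and -0.28 to 0.67 for Mup20, -0.63 to 0.38 for Mup21 at base 455, -1.05 to 0.14 and -0.86 to 0.015 for Mup3, and -0.36 to 0.85 for Mup4. Mup5 turned to 0.30 and 0.99 in AAV-GP73 against AAV-V (75th percentile of all probes, spike-in) and to -0.0028 against AAV-V HFD (hepatocyte markers). Of 741 values of single probes over all settings, 639 kept sign and side of the threshold. No probe was saturated, and 1 Mup3 probe and 6 other family probes were too dim to test.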
